A study of Arabidopsis thaliana with 32 samples.

Results

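The genes described here belong to salicylate signalling and systemic resistance in Arabidopsis thaliana, and they were followed through roots of 2 genotypes, at 2 ages, in spaceflight and on the ground. The set holds 9 genes, of the 5063 gene identifiers that appear in at least 1 of the authors' 12 deposited tables. They are NIMIN1 (AT1G02450), ALD1 (AT2G13810), FMO1 (AT1G19250), NPR3 (AT5G45110), DMR6 (AT5G24530), DLO1 (AT4G10500), WRKY59 (AT2G21900), WRKY70 (AT3G56400) and GRXS13 (AT1G03850). A gene was found by its identifier, alone or inside a locus that merges several genes, and none of its entries was merged. The set was chosen by the deposited fold changes and q-values of these same tables, so every value of the 9 genes below is a description and carries no test of its own. Of the 9 genes, 8 had at least 1 entry, and FMO1 had none.

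Salicylate is a plant hormone made when tissue meets a pathogen, and it acts through the NPR proteins, which bind it and work with TGA transcription factors on defence genes. A second small molecule, N-hydroxypipecolic acid, is made by ALD1 and FMO1 in sequence, moves between organs and sets up systemic acquired resistance, a raised readiness in parts of the plant that were not attacked. Both signals switch on genes that damp them again, among them the NIMIN proteins and the salicylate hydroxylases. Most of this is known from leaves.

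The study crossed genotype, age and place of growth in 8 groups of 4 samples, 32 in all. The genotypes were the wild-type accession Col-0 and Sku6, a line that carries the sku6 allele of SPIRAL1 (SPR1), a protein that binds microtubules and whose loss makes roots skew. The labels name no accession as the parent of Sku6, so an effect of the allele and one of other differences between the lines cannot be told apart. Seedlings germinated on vertical plates of solid medium under LED light, either in the Veggie plant growth hardware of the International Space Station (flight) or in the same kind of unit in a simulator chamber on Earth, run 48 h later (ground), and were put into RNAlater at 4 or 8 days. Roots were cut off afterwards, and a sample pooled 5 to 8 roots at 4 days and 2 to 3 roots at 8 days, so age and pool size cannot be told apart. Each of the authors' deposited tables compares 2 groups and gives 1 level per group in FPKM (sequenced fragments per length of transcript and size of library), a log2 fold change, a p-value and a q-value, and lists a locus where the q-value does not exceed 0.05. A gene without an entry is called not listed, and nothing follows from that about its change. With 1 value per group there is no spread over the 4 samples, and the depth of the libraries is unknown. In a root pool, fewer cells that use a gene and less RNA per cell cannot be told apart.

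The label of the mutant line could be checked on SPR1 itself, which in the authors' deposited tables stood at 1210 to 1422 FPKM in the 4 Col-0 groups and at 7.21 to 13.0 FPKM in the 4 Sku6 groups. Of 6 root marker genes, 3 were listed (COBL9, SCR and GPAT5), each at above 0 in every group with a value, and EXPA7, CASP1 and PLT1 were in no table. Between genotypes GPAT5 was lower in Sku6 on the ground at 4 days (log2 -1.09), and SCR in flight at 8 days (log2 -0.75). In flight GPAT5 was lower in Col-0 at both ages and in Sku6 at 8 days, and SCR was higher in Col-0 at 8 days. With age GPAT5 was higher in every comparison, SCR was lower in all but Col-0 in flight, and COBL9 was lower in Col-0 on the ground. Of 9 genes of green shoot tissue, all were listed somewhere, none at 0, and their values stand below beside the comparisons they move with.

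The stretch of 250 bases before each gene's start was read from the RefSeq annotation of TAIR10.1, for all 9 genes, because TGA and WRKY factors are the known transcriptional arm of this pathway. The letters TTGAC (the core of the W-box, which WRKY factors bind) and TGACG (the half-site of TGA factors) were searched on both strands, so they also appear as GTCAA and CGTCA. In 4 of the 9 stretches TTGAC was present (44.4%), against 44.9% of 27438 protein-coding genes. TGACG was present in the same 4 stretches (44.4%), against 18.6% of those genes. The 4 are shown because they hold every match found, each on its gene's strand and read toward the gene, with the matched letters in capitals.
DLO1, chr4:6490767-6491016, plus strand: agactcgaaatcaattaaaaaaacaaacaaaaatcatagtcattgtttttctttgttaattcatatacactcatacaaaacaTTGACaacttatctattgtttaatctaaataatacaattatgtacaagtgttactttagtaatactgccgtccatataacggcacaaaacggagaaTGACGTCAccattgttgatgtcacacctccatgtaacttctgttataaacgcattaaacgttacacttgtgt
WRKY70, chr3:20910624-20910873, minus strand: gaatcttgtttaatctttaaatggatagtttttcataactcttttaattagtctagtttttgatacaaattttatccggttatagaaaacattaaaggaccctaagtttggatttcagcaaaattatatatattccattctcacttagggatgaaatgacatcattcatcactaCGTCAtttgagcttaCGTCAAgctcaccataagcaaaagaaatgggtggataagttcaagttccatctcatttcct
GRXS13, chr1:977912-978161, minus strand: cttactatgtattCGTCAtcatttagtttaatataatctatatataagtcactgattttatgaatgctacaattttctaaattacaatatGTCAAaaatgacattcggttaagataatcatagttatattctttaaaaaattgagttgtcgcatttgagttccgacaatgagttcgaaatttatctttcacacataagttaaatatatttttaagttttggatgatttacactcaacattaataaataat
NPR3, chr5:18228518-18228767, plus strand: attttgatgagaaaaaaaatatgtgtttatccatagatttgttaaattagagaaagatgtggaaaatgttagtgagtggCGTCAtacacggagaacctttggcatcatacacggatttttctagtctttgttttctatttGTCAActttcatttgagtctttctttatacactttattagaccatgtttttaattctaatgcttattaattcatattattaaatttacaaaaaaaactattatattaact
In DLO1 the 2 TGACG matches lie on opposite strands and overlap as TGACGTCA, from base -72 to base -65 counted from the gene's start. In WRKY70 there were also 2 TGACG matches, and 1 of them, at -61 to -57, shares letters with the TTGAC match at -60 to -56. Of all 27438 stretches, 3.21% held 2 or more TGACG matches. NIMIN1, ALD1, FMO1, DMR6 and WRKY59 held neither set of letters in this window. A match is a run of letters and not a measured binding site.

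Across the authors' 12 deposited tables the 8 listed genes had 44 entries of 108 possible. The pattern divided by what was compared. All 23 entries of the genotype tables were higher in Sku6 and 0 were lower. The flight against ground tables held 6 higher and 2 lower entries, and the tables of 8 against 4 days held 2 higher and 11 lower entries. The deposited q-values ran from 0.00107 to 0.0485, and 28 of the 44 entries carried the lowest p-value the authors' test gave, 5e-05.

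**Figure D1:**
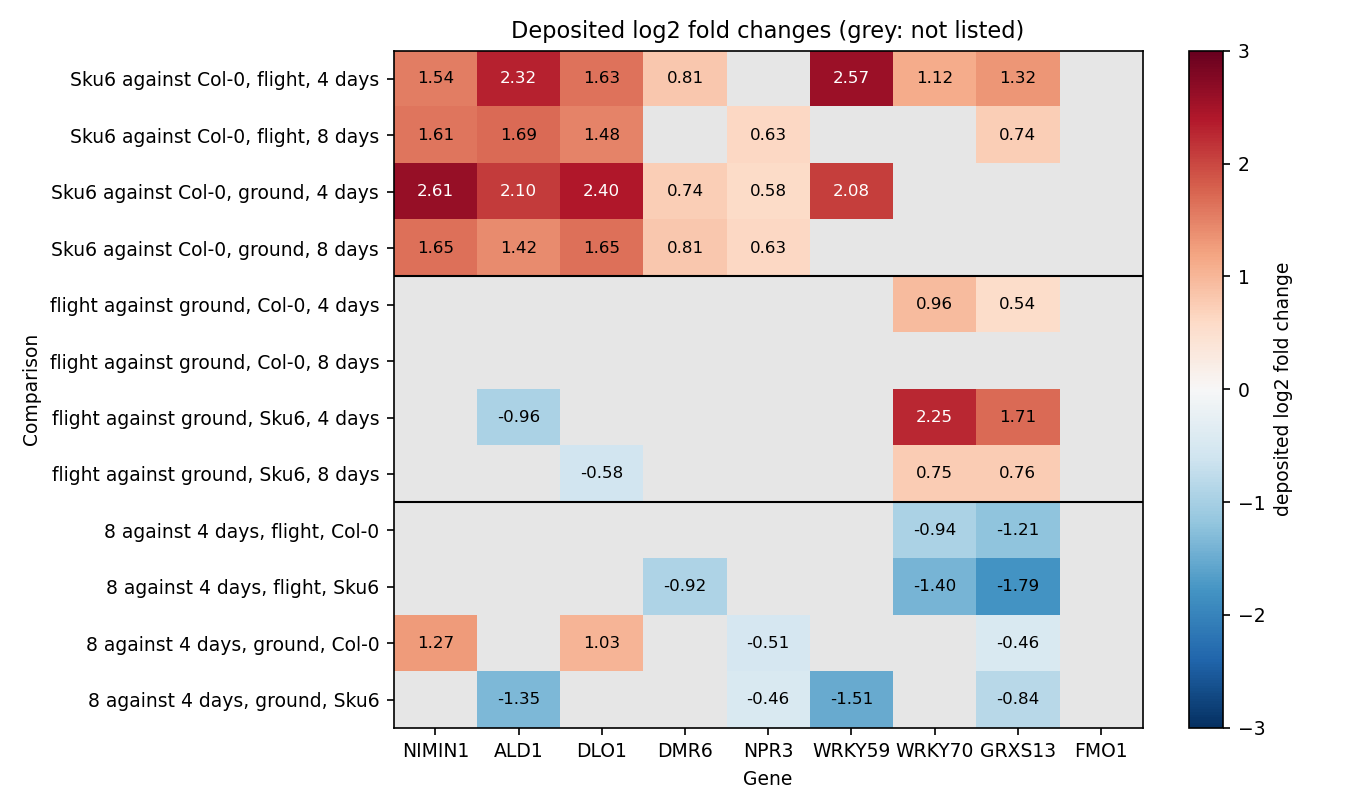
Deposited log2 fold changes of the 9 genes (columns) in the 12 comparisons (rows: Sku6 over Col-0, flight over ground, 8 over 4 days), colour and number showing the same value and grey a gene that is not listed. All 23 filled cells of the upper 4 rows are positive, from 0.58 to 2.61. WRKY70 and GRXS13 hold all but 2 of the 8 filled cells of the middle block, where 28 cells are grey.

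In the genotype comparisons the question was which genes stood at different levels in roots of Sku6 and of Col-0. At 4 days in flight 7 of the 9 genes were listed as higher in Sku6, against 2.02% of 19464 tested loci called in either direction and 1.55% called higher in Sku6. At 8 days in flight there were 5, against 1.40% called in either direction and 1.03% higher. On the ground 6 were listed at 4 days, against 2.93% in either direction and 1.45% higher, and 5 at 8 days, against 1.34% in either direction and 0.729% higher. The genes were chosen for this contrast, so nothing is read from these shares. NIMIN1, ALD1 and DLO1 were listed in all 4 genotype tables, which share no sample with each other.

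**Figure D2:**
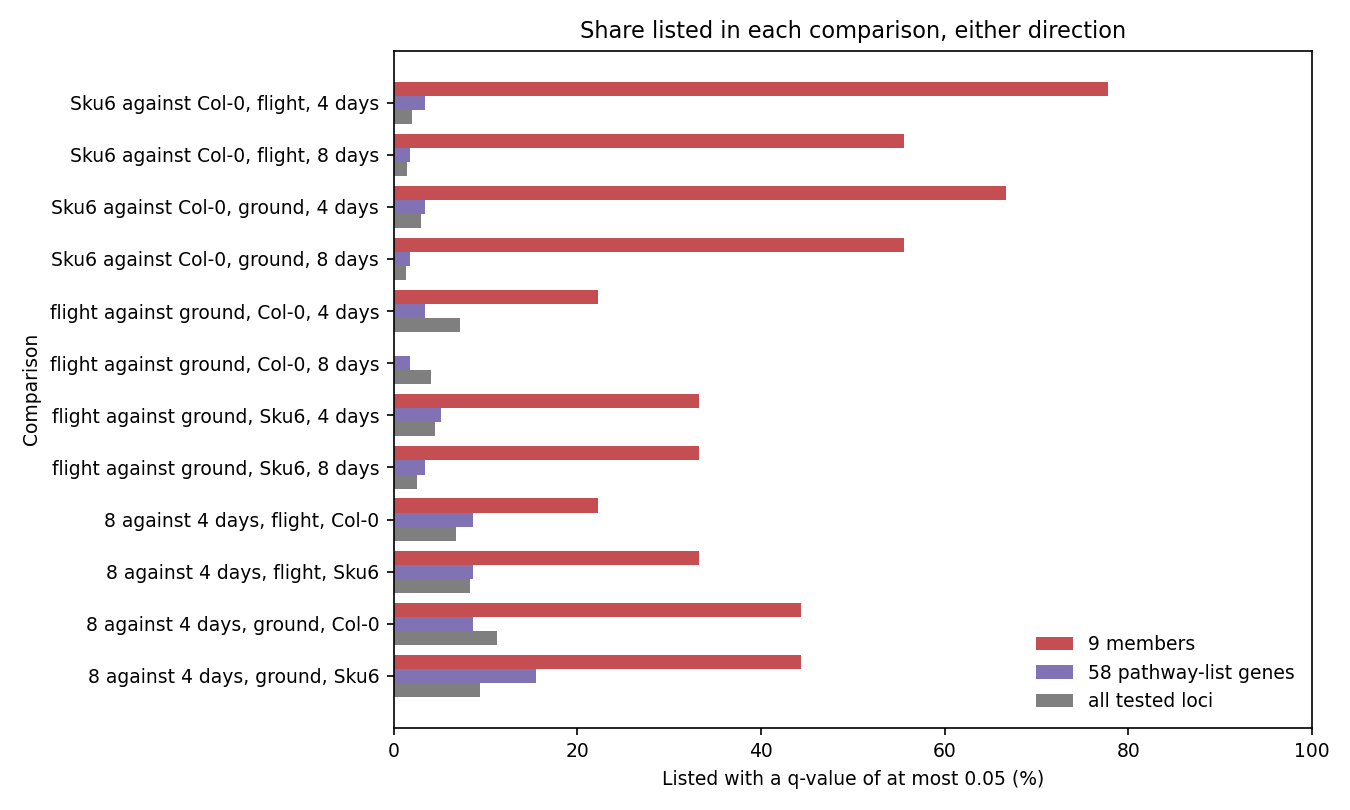
Share listed with a q-value of at most 0.05, in either direction, of the 9 genes, of a wider list of 58 pathway genes and of all tested loci, in percent, for each of the 12 comparisons. The 9 genes reach 77.8% in flight at 4 days between the genotypes, where the 58 genes reach 3.45% and all loci 2.02%. No bar is drawn for the 9 genes in Col-0 at 8 days between flight and ground, where none was listed.

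The median log2 fold change of the listed genes between genotypes was 1.54 in flight at 4 days, 1.48 in flight at 8 days, 2.09 on the ground at 4 days and 1.42 on the ground at 8 days. Over all called loci of the same deposited tables, which run in both directions, the signed medians were 0.66, 0.43, -0.37 and 0.46. The medians of their absolute log2 fold changes were 0.727, 0.504, 0.623 and 0.727. The genes were chosen by these fold changes, so nothing is read from the difference. Levels in both genotypes of a place and age were given for 27 pairs, since a gene listed in 1 table also gives levels for others. The Sku6 level was above the Col-0 level in 25 pairs and below it in 2. Of the 27 pairs, 23 are the listed genotype entries that the genes were chosen for, so their direction was fixed beforehand. The pairs not listed went both ways. GRXS13 on the ground at 4 days (ratio 1.10) and WRKY70 in flight at 8 days (ratio 1.59) were higher in Sku6. WRKY70 on the ground at 4 days (ratio 0.877) and GRXS13 on the ground at 8 days (ratio 0.863) were lower. Group levels quoted below are the median over the deposited tables that give the group, and the same level differed between tables by a factor of 1.041 at most.

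ALD1 is an aminotransferase that starts the synthesis of pipecolic acid from lysine. Its Col-0 level in the authors' deposited tables was 1.78 FPKM on the ground and 0.790 FPKM in flight at 4 days, and 1.18 and 0.756 FPKM at 8 days. In Sku6 the corresponding levels were 7.65 and 3.94 FPKM at 4 days and 3.13 and 2.43 FPKM at 8 days. Every Sku6 group stood above every Col-0 group, and the ground group of Sku6 at 4 days stood highest. The gene was chosen for the genotype contrast, and the share of all loci that separate in this way was not counted. Nothing is read from the separation of ALD1, or from that of NIMIN1 and DLO1 below. The deposited fold over Col-0 was 4.30 on the ground (q = 0.00409) and 5.00 in flight (log2 2.32, q = 0.00499) at 4 days. At 8 days it was 2.68 on the ground (log2 1.42, q = 0.0343) and 3.22 in flight (log2 1.69, q = 0.0212). ALD1 had the lowest level of any listed gene, and 2 of its Col-0 levels lay under 1 FPKM, where a fold depends on few fragments. With 1 FPKM added to both levels, the log2 fold changes fell to 1.47 in flight at 4 days, 0.97 in flight at 8 days and 0.94 on the ground at 8 days.

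ALD1 was also the member whose level was lower in flight in all 4 pairs of groups, although only 1 of them was listed. In Sku6 at 4 days the authors' deposited table gave 3.92 FPKM in flight and 7.64 FPKM on the ground, 1.95-fold lower in flight (log2 -0.96, q = 0.0235). The ratio of the flight level to the ground level in the unlisted pairs was 0.444 in Col-0 at 4 days, 0.641 in Col-0 at 8 days and 0.776 in Sku6 at 8 days. With age, ALD1 was listed in Sku6 on the ground, where the deposited level was 2.55-fold lower at 8 than at 4 days (log2 -1.35, q = 0.00120). The next enzyme of the route, FMO1, which turns pipecolic acid into N-hydroxypipecolic acid, had no entry and no level is given for it here.

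NIMIN1 encodes a small protein that binds NPR1 and dampens the genes it activates. Its Col-0 levels in the authors' deposited tables were 3.06 FPKM on the ground and 6.03 FPKM in flight at 4 days, and 7.61 and 8.04 FPKM at 8 days. Its Sku6 levels were 18.4 and 17.5 FPKM at 4 days and 24.2 and 24.5 FPKM at 8 days. The lowest Sku6 group thus lay above the highest Col-0 group. The deposited fold over Col-0 was 6.11 on the ground at 4 days (log2 2.61, q = 0.00409), the highest of the 44 member entries. It was 2.91 in flight at 4 days (log2 1.54, q = 0.0122), 3.14 on the ground at 8 days (log2 1.65, q = 0.00610) and 3.05 in flight at 8 days (log2 1.61, q = 0.00750). Whether the fold on the ground at 4 days differs from the other 3 was not tested. NIMIN1 was listed in no flight against ground table. With age it rose 2.41-fold in Col-0 on the ground (log2 1.27, q = 0.0406), and in Sku6 on the ground, where it was not listed, the ratio of the 8-day to the 4-day level was 1.32.

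NPR3 is a salicylate receptor related to NPR1 that acts as a repressor of defence genes. Its levels in Col-0 were 12.1 FPKM on the ground at 4 days, 8.80 FPKM on the ground at 8 days and 10.1 FPKM in flight at 8 days, in the authors' deposited tables. In Sku6 the same groups had 18.1, 13.6 and 15.7 FPKM, and no level is given for either genotype in flight at 4 days. Over these 6 groups its lowest and highest level differed by a factor of 2.06. The deposited fold over Col-0 was 1.50 on the ground at 4 days (log2 0.58, q = 0.0118), 1.55 on the ground at 8 days (log2 0.63, q = 0.00610) and 1.55 in flight at 8 days (log2 0.63, q = 0.00750). On the ground it was lower at 8 than at 4 days in both genotypes, 1.42-fold in Col-0 (q = 0.0170) and 1.37-fold in Sku6 (q = 0.0233). Among listed genes within 100 kb of NPR3 are PP2-A6 and PP2-A8, of the phloem lectin family, 35440 and 39245 bases away. Both were higher in Sku6 in all 4 of the authors' deposited genotype tables, PP2-A6 for example by log2 2.01 and PP2-A8 by log2 0.69 on the ground at 4 days. Such neighbours are not particular to NPR3. The merged locus of NAC003, 67197 bases from NIMIN1, was also higher in Sku6 in all 4 (log2 0.68 to 1.42). Other listed neighbours were lower in Sku6. BXL2, 65479 bases from NIMIN1, was lower on the ground at 4 days (log2 -1.13). FLA9, 4470 bases from GRXS13, was lower on the ground at 4 days (log2 -0.65) and in flight at 8 days (log2 -0.29). Within 100 kb lie 50 genes for NPR3 and 84 for NIMIN1, and the share of them listed was not counted.

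DMR6 and DLO1 are related oxygenases that hydroxylate salicylate, at different carbons of its ring, and so lower its level. Their coding sequences in TAIR10.1 (1026 and 1050 bases) were identical at 63.6% of 1011 aligned bases, with no identical run longer than 17 bases. DMR6 was the more abundant of the pair in every group with both values. Its Col-0 levels were 47.2 FPKM on the ground and 53.4 FPKM in flight at 4 days and 38.0 FPKM on the ground at 8 days, in the authors' deposited tables. Its Sku6 levels were 79.1 and 94.9 FPKM at 4 days, and 66.9 FPKM on the ground and 50.8 FPKM in flight at 8 days. The deposited fold over Col-0 was 1.67 on the ground at 4 days (q = 0.00409), 1.76 in flight at 4 days (q = 0.0122) and 1.76 on the ground at 8 days (q = 0.00610). In flight DMR6 was 1.89-fold lower at 8 than at 4 days in Sku6 (log2 -0.92, q = 0.00133).

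DLO1 had lower levels and higher folds than DMR6. In the authors' deposited tables it stood in Col-0 at 2.35 FPKM on the ground and 2.92 FPKM in flight at 4 days, and at 4.92 and 3.77 FPKM at 8 days. In Sku6 it stood at 12.2 and 9.03 FPKM at 4 days and at 15.6 and 10.5 FPKM at 8 days, so the Sku6 and Col-0 groups did not overlap. The deposited fold over Col-0 was 5.28 on the ground at 4 days (log2 2.40, q = 0.00409) and 3.10 in flight at 4 days (log2 1.63, q = 0.00499). At 8 days it was 3.13 on the ground (log2 1.65, q = 0.00610) and 2.79 in flight (log2 1.48, q = 0.00750). Between places it was listed once, 1.50-fold lower in flight in Sku6 at 8 days (log2 -0.58), with a q-value of 0.0485 next to the limit of 0.05. With age it rose 2.04-fold in Col-0 on the ground (log2 1.03, q = 0.0104), as did NIMIN1 in the same comparison.

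**Figure D3:**
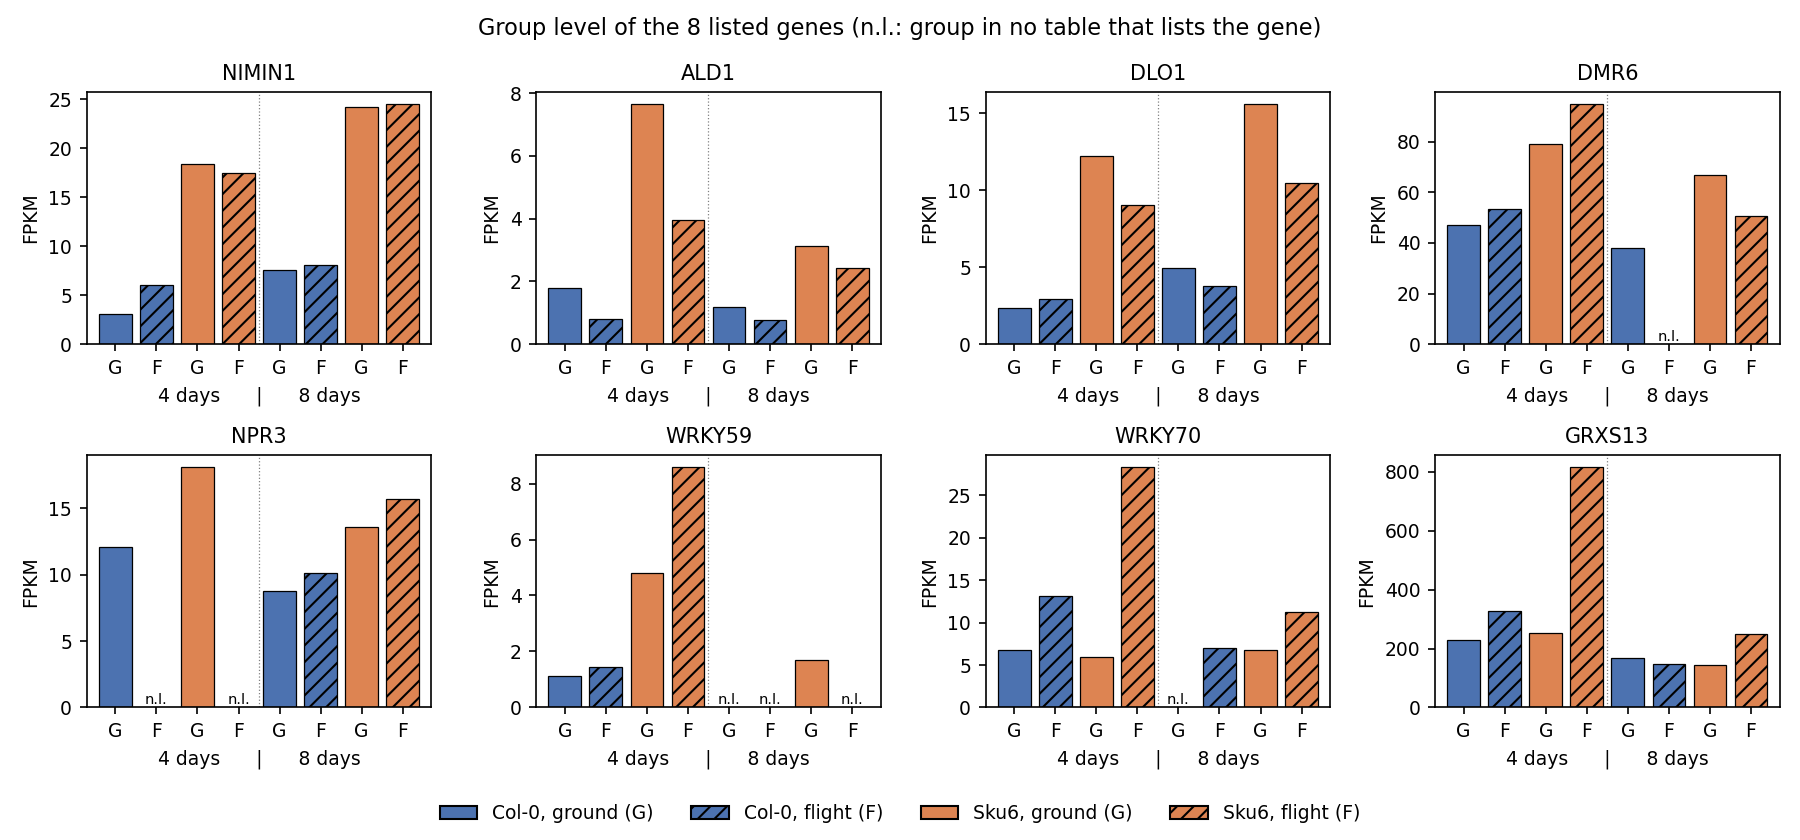
Group level in FPKM of the 8 listed genes, each panel with its own scale from 0, for ground (G, plain) and flight (F, hatched) groups of Col-0 and Sku6 at 4 and 8 days. A bar is the median of the authors' deposited values of a group of 4 samples and has no error because no value per sample is given, and n.l. marks a group in no table that lists the gene. NIMIN1, ALD1 and DLO1, chosen for the genotype contrast, are higher in every Sku6 group than in every Col-0 group. Other loci, among them AT5G22270 and GER2, separate in the same way, and their share of all loci was not counted. WRKY70 and GRXS13 peak in the flight group of Sku6 at 4 days, at 28.3 and 815 FPKM.

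WRKY59 and WRKY70 are transcription factors of the WRKY family, and WRKY70 is known to favour salicylate over jasmonate responses. WRKY59 stood in the authors' deposited tables at 1.12 FPKM on the ground and 1.44 FPKM in flight in Col-0 at 4 days, and at 4.79 and 8.58 FPKM in Sku6. Its fold over Col-0 was 4.23 on the ground (log2 2.08, q = 0.0370) and 5.96 in flight (log2 2.57, q = 0.0150). At 8 days it was not listed between the genotypes, and its Sku6 level on the ground had fallen to 1.70 FPKM, 2.85-fold lower than at 4 days (log2 -1.51, q = 0.0420).

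WRKY70 did not follow the genotype in the way of the preceding genes. Its 4-day levels on the ground were 6.73 FPKM in Col-0 and 5.90 FPKM in Sku6, and its 4-day levels in flight were 13.1 and 28.3 FPKM, in the authors' deposited tables. At 8 days it stood at 7.06 FPKM in Col-0 in flight, and in Sku6 at 6.73 FPKM on the ground and 11.2 FPKM in flight. Flight groups of Sku6 were therefore above its ground groups at both ages. Between genotypes it was listed only in flight at 4 days, 2.17-fold higher in Sku6 (log2 1.12, q = 0.00499).

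GRXS13 is a glutaredoxin of the plant-specific class whose members bind TGA factors, and it was the most abundant of the genes per length. The authors' deposited tables gave 228 FPKM on the ground and 328 FPKM in flight in Col-0 at 4 days, and 168 and 149 FPKM at 8 days. They gave 251 and 815 FPKM in Sku6 at 4 days, and 145 and 249 FPKM at 8 days. Outside the flight group of Sku6 at 4 days the levels kept to a range of 145 to 328 FPKM. GRXS13 was listed in 9 of the 12 tables, more than any other of the genes. Over Col-0 it was 2.49-fold higher in Sku6 in flight at 4 days (log2 1.32, q = 0.00499) and 1.67-fold higher in flight at 8 days (log2 0.74, q = 0.00750), and it was not listed in the ground tables.

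The flight against ground comparisons set the 2 places of growth side by side within a genotype. Flight and ground were separate runs, 48 h apart, so place and run cannot be told apart. Of the 9 genes, 2 were listed in Col-0 at 4 days (7.21% of all tested loci were called), 0 in Col-0 at 8 days (4.05%), 3 in Sku6 at 4 days (4.45%) and 3 in Sku6 at 8 days (2.51%). WRKY70 and GRXS13 made up all 6 higher entries. WRKY70 was 1.95-fold higher in flight in Col-0 at 4 days (log2 0.96, q = 0.00461) in the authors' deposited table. In Sku6 the deposited fold was 4.77 at 4 days (log2 2.25, q = 0.00228) and 1.69 at 8 days (log2 0.75, q = 0.0247). GRXS13 was 1.45-fold higher in Col-0 at 4 days (log2 0.54, q = 0.00185), 3.27-fold higher in Sku6 at 4 days (log2 1.71, q = 0.00228) and 1.69-fold higher in Sku6 at 8 days (log2 0.76, q = 0.00373), from the deposited tables. Both genes had a higher deposited fold in Sku6 than in Col-0 at 4 days. That difference was not tested, since the tables hold no test of it and no values per sample. The 2 lower entries were ALD1 in Sku6 at 4 days and DLO1 in Sku6 at 8 days, described above. These tables share groups with the genotype tables, so the 4-day flight level of Sku6 enters both.

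With age, 11 of the 13 entries were lower at 8 than at 4 days, and 4 of these were of GRXS13. Of all called loci, 47.0% to 50.7% were higher at 8 days in the same comparisons. In flight 2 genes were listed in Col-0, where 6.78% of tested loci were called, and 3 in Sku6, where 8.35% were. On the ground 4 were listed in Col-0 (11.2%) and 4 in Sku6 (9.43%). GRXS13 was lower at 8 days in all 4 of the authors' deposited tables, by 2.32-fold in Col-0 and 3.46-fold in Sku6 in flight (log2 -1.21 and -1.79), and by 1.37-fold in Col-0 and 1.79-fold in Sku6 on the ground (log2 -0.46 and -0.84). Its q-values there were 0.00174, 0.00133, 0.00107 and 0.00120. WRKY70 was lower at 8 days in both flight tables, 1.92-fold in Col-0 (log2 -0.94, q = 0.00174) and 2.64-fold in Sku6 (log2 -1.40, q = 0.00133). On the ground in Sku6 it was not listed and the ratio of its 8-day to its 4-day level was 1.14. The only entries higher at 8 days were NIMIN1 and DLO1 in Col-0 on the ground.

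Shoot genes, which mark green tissue, moved with some of these comparisons. In Sku6 against Col-0 in flight at 4 days, where 7 of the 9 genes were higher, 5 of the 9 shoot genes were higher too, with a summed level in the authors' deposited table of 624 FPKM against 351 FPKM. In the other genotype tables none of the 9 was higher, and on the ground at 8 days 3 were lower in Sku6, with 214 FPKM against 403 FPKM. NIMIN1, ALD1 and DLO1 were higher in Sku6 in every genotype table. In flight against ground, 2 shoot genes were lower in Col-0 at 4 days (207 against 267 FPKM) and 5 were lower in Col-0 at 8 days (239 against 454 FPKM). In Sku6 at 4 days 3 were higher and 1 was lower in flight (152 against 82.3 FPKM), and in Sku6 at 8 days none was listed. WRKY70 and GRXS13 were higher in flight in Col-0 at 4 days and in Sku6 at both ages. A shoot gene that is not listed has no value in that comparison, so the amount of shoot tissue is not known. With age, 7, 7, 4 and 8 of the 9 shoot genes were lower at 8 days, in the order flight Col-0, flight Sku6, ground Col-0 and ground Sku6, in the same direction as 11 of the 13 entries of the set. Their summed levels in the authors' deposited tables, in that order and at 8 against 4 days, were 175 against 380 FPKM, 246 against 796 FPKM, 25.4 against 92.7 FPKM and 229 against 513 FPKM. In each flight table with age the 7 genes had 8 locus entries, because RBCS1A was entered more than once, and all were summed. Each sum in this paragraph covers only the shoot genes listed in that comparison, so sums of different comparisons are not alike. The part of shoot tissue in any entry of the set was not tested.

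A wider list of 58 genes of the same pathway, written with earlier results known, gives the surroundings of the 9. Of the 58, 15 were listed in any table (25.9%), near the share of all loci, since 4802 loci were listed in any table and 19464 to 20035 were tested in each (24.0% to 24.7%). By role these were 3 of 17 genes of salicylate synthesis and its activators, 2 of 7 of its modification, 4 of 13 receptors and co-factors, 3 of 11 WRKY factors and 3 of 10 outputs and long-distance signals. The output genes PR1, PR2 and PR5, the usual readout of salicylate signalling in leaves, were not listed in any table, nor were NPR1 or GRX480. Between genotypes, 2 of 58 were higher in Sku6 in flight at 4 days (3.45%), 1 in flight at 8 days (1.72%) and 2 on the ground at 4 days (3.45%), and 1 was lower on the ground at 8 days (1.72%). Those shares lie near the shares of all tested loci given above, unlike those of the 9 genes, which were picked for this contrast. In flight against ground, 1 was higher and 1 lower in Col-0 at 4 days, and 1 was lower in Col-0 at 8 days. In Sku6, 3 were higher at 4 days and 2 at 8 days. In that order 3.45%, 1.72%, 5.17% and 3.45% of the list were listed, against 7.21%, 4.05%, 4.45% and 2.51% of all tested loci. With age, in the same order as the shoot genes, 2, 2, 3 and 5 were higher at 8 days and 3, 3, 2 and 4 were lower. Together these were 8.62%, 8.62%, 8.62% and 15.5% of the list, against 6.78%, 8.35%, 11.2% and 9.43% of all tested loci.

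Among the WRKY factors of the list, WRKY18, a regulator of basal defence, was higher in flight in the same 3 tables as WRKY70. The authors' deposited tables gave 12.8 against 5.12 FPKM in Col-0 at 4 days (log2 1.32, q = 0.00185), 12.5 against 5.44 FPKM in Sku6 at 4 days (log2 1.20, q = 0.00228) and 11.6 against 6.17 FPKM in Sku6 at 8 days (log2 0.91, q = 0.00373). Unlike WRKY70, WRKY18 was not listed between the genotypes. It was 1.55-fold lower at 8 than at 4 days in Col-0 in flight (q = 0.0176).

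The systemic signalling genes of the list split. DIR1, a lipid transfer protein needed for the long-distance signal, stood at 1.60 to 2.89 FPKM in the 4 groups of 4 days and at 90.4 to 180 FPKM in the 4 groups of 8 days, in the authors' deposited tables. Its deposited log2 fold change with age ran from 5.61 to 5.92 (q from 0.00107 to 0.00174). The 4-day levels are low, so the precision of these folds is unknown. At 8 days the ground group of Col-0 stood apart at 180 FPKM, and DIR1 was lower both in flight (log2 -0.92, q = 0.00263) and in Sku6 on the ground (log2 -0.97, q = 0.00610). EARLI1, of the same broad protein class, has 2 locus entries over the same coordinates, and the values given are of the entry with the higher level. It was higher in flight in Sku6 at 4 days, 376 against 223 FPKM (log2 0.76, q = 0.00228), and at 8 days, 267 against 167 FPKM (log2 0.67, q = 0.00373). It was also higher in Sku6 than in Col-0 in flight at 4 days (log2 0.87, q = 0.00499), and in Sku6 it was lower at 8 than at 4 days in flight (log2 -0.58, q = 0.00534) and on the ground (log2 -0.49, q = 0.0161). The other entry was listed once, in Sku6 in flight, at 46.3 FPKM at 8 days against 138 FPKM at 4 days (log2 -1.58, q = 0.00929). Its neighbour AZI1, in the deposited tables merged with another gene, was lower at 8 days in 3 age tables (log2 -1.65, -0.81 and -1.32). AZI1 and EARLI1 are closely related copies side by side in the genome, so the division of reads between them is uncertain.

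**Figure D4:**
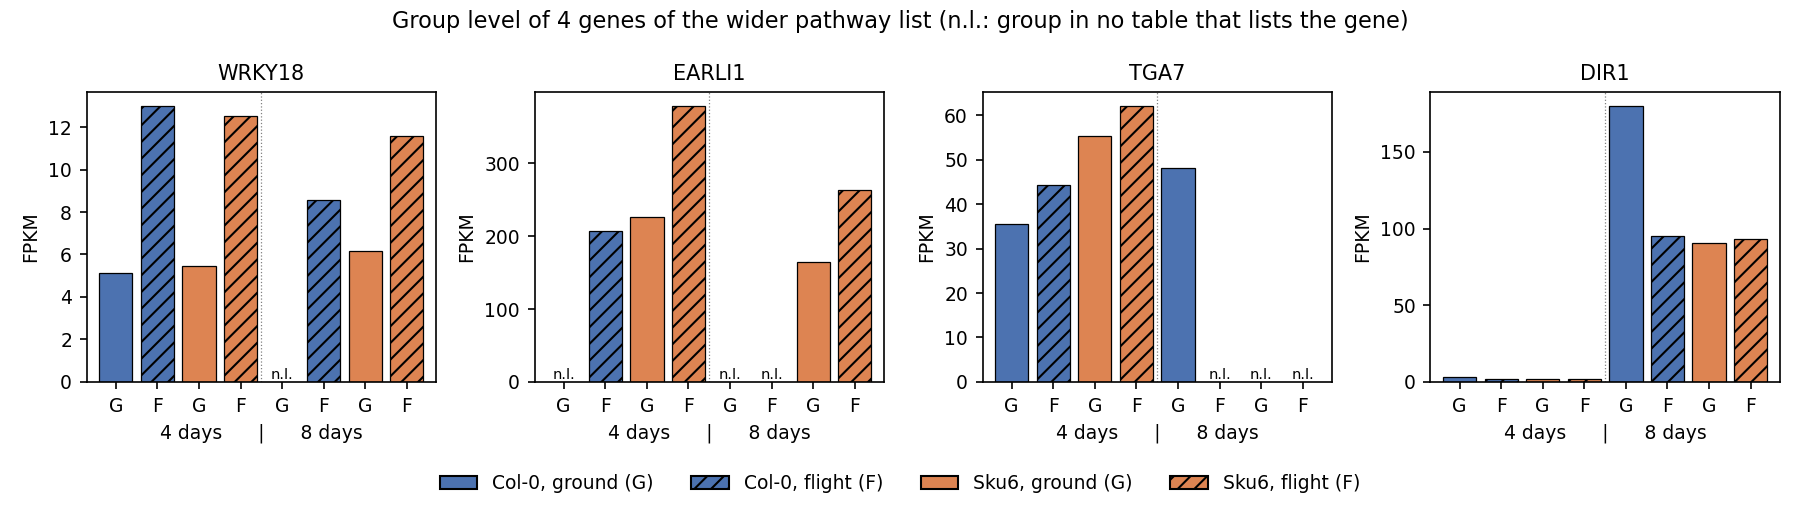
Group level in FPKM of WRKY18, EARLI1, TGA7 and DIR1, drawn as in the plot of the 8 listed genes. WRKY18 lies between 8.58 and 13.0 FPKM in the flight groups and between 5.12 and 6.17 FPKM in the ground groups with a value, and DIR1 is below 3 FPKM in all groups of 4 days. The TGA7 bars are the level of a locus merged with 1 other gene, and the EARLI1 bars are the higher of its 2 locus entries.

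UGT74F2, which puts glucose on salicylate, has 2 locus entries over the same coordinates in the deposited tables, and the level cannot be divided between them. It was lower at 8 days in all 4 age tables, with log2 fold changes from -1.47 to -0.85, and higher in flight in Sku6 at 4 days (log2 1.09, q = 0.00596). TGA7, a TGA factor whose locus is merged with AT1G77930, was higher in Sku6 at 4 days in flight (log2 0.49, q = 0.0363) and on the ground (log2 0.66, q = 0.00409), and higher at 8 days in Col-0 on the ground (log2 0.42, q = 0.0115). NIMIN3, a relative of NIMIN1 in a merged locus, was not listed between the genotypes and was higher at 8 days on the ground in Col-0 (log2 0.89, q = 0.00107) and in Sku6 (log2 0.83, q = 0.00791), in the authors' deposited tables. PAL4, of the phenylalanine ammonia-lyase family, was lower in flight in Col-0 at 4 days (log2 -0.55, q = 0.0331) and higher at 8 days in Sku6 in flight (log2 0.71, q = 0.00534) and on the ground (log2 0.56, q = 0.0233). The other 7 listed genes of the list, WRKY38, WRKY51, UGT74F1, NIMIN2, ICS1, EDS5 and TGA1, had 1 entry each.

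Genes with the most similar pattern over the 12 tables were sought for the 7 members listed in at least 4 tables. Each locus was scored by the number of tables in which both were listed in the same direction, minus those in opposite directions or with only 1 of the pair listed, and ties were ordered by Pearson's r of log2 levels over the groups. Tables share groups, so these values describe the tables only. For NIMIN1 the first gene was AT5G22270, which was listed in the same direction in 5 tables and alone in 1 (r = 0.98 over 8 groups), followed by PP2-A6 and AT1G67148. AT5G22270 stood at 4.78 to 10.4 FPKM in Col-0 and 14.2 to 24.1 FPKM in Sku6, in the authors' deposited tables. AT5G22270 and PP2-A6 also came next for DLO1, behind AT3G56275 (r = 0.96 over 6 groups), which lies 35140 bases from WRKY70. For ALD1 the first was GER2, a germin-like protein, at 1.85 to 5.46 FPKM in Col-0 and 7.26 to 22.5 FPKM in Sku6 (r = 0.98 over 8 groups), followed by PP2-A8 and AT2G31585. NPR3 was followed by its neighbour PP2-A8 (r = 0.92 over 6 groups), NUDT17 and AT5G41280. DMR6 was matched in its 4 tables and no other by AT1G52130 (r = 0.99 over 7 groups) and by CYP71B9, a cytochrome P450 (r = 0.97 over 7 groups). The transcription factor gene NAC047 came next. AT1G52130 stood at only 0 to 2.31 FPKM and CYP71B9 at 0.272 to 3.05 FPKM, where r depends on few fragments.

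WRKY70 and GRXS13 had other companions than these. AT5G20820, AT5G22920 and AT3G15630 were listed in all 6 tables of WRKY70 in its direction and in 1 more (r = 0.96 to 0.97 over 7 groups). AT5G22920 stood in the authors' deposited tables at 112 FPKM in the flight group of Sku6 at 4 days and at 13.4 FPKM in the matching ground group. For GRXS13 the 3 were AT2G37750, HIR2 (of the hypersensitive induced reaction protein family) and RMA2 (a RING-type ubiquitin ligase), each listed in 8 of its 9 tables in its direction (r = 0.95 to 0.98 over 8 groups). RMA2 stood at 94.7 FPKM in the flight group of Sku6 at 4 days and between 13.0 and 53.0 FPKM in the other 7 groups, in the deposited tables. No gene was named both for WRKY70 or GRXS13 and for one of the other 5. None was named for both WRKY70 and GRXS13 either, and the genes named for DMR6 were named for no other member. Only 3 genes were kept per member, each scored on that member's own entries, so little overlap could arise and nothing is read from it.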

How the data were processed

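RNA from dissected roots was sequenced in 32 samples, 4 in each of 8 groups, after SMART-Seq v4 and Nextera library preparation from 10 ng of RNA, per the labels' protocols. This preparation does not mark strand. Build TAIR10 and the tools STAR 2.5.1b, Cufflinks, Cuffdiff, Picard, Trimmomatic 0.36 and FastQC 0.11.2 are named in the submitters' processing notes, without settings. The authors deposited 12 tables of comparisons, each with a group level in FPKM per the file headers, and a locus is listed where the authors' q-value does not exceed 0.05. The authors' deposited log2 fold changes were used with the sign set to Sku6 over Col-0, flight over ground and 8 over 4 days. The deposited p-value and q-value of each locus are the authors', and no test was added because no value per sample is in hand. The depth behind a level, and so its precision, is unknown.

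The number of loci tested (19464 to 20035) was inferred from how q relates to p under Benjamini-Hochberg adjustment, a step tested on simulated p-values. The tables were scaled separately, and a gene's group level is the median over tables. The 9 genes, the 58-gene list, the shoot and root markers and the motifs were chosen with earlier results of these data known. Named were all 9 genes, list genes in at least 2 tables (at most 12), and the 3 genes of most similar pattern for each of the 9 genes with at least 4 tables. Single genes named outside this rule (list genes with 1 entry, neighbours, genes that are not listed) were chosen after their values were seen. Identifiers, starts and sequences come from RefSeq's TAIR10.1. All 58 identifiers of the list matched it, and 54 of its symbols. No annotated gene overlaps any of the 9. Proteins were not analysed here. Python 3.11.15, Biopython 1.88 (alignment of coding sequences) and matplotlib 3.10.9 were used. Alternatives were a q-value of at most 0.01, an absolute log2 fold change of at least 1, merged loci left out, a minimum of 1 FPKM, 1 or 0.1 FPKM added, the lowest or highest level among tables, and a promoter window of 300 bases.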

Additional observations from a re-analysis of the deposited data

How the results depend on the processing

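No paired analysis was possible because the tables give 1 value per group, and leaving out each sample in turn could not be run for the same reason. With a q-value of at most 0.01 the genotype entries numbered 16 higher and 0 lower in place of 23 and 0, the place entries 5 and 0 in place of 6 and 2, and the age entries 0 and 8 in place of 2 and 11. A count is called moved where it changed by more than 1.5 times, or to 0. The moved genotype count was then 4 higher in Sku6 in flight at 4 days. The other genotype counts also fell, to 4 each, within that limit. Moved place counts were 0 lower in flight in Sku6 at 4 days, and 1 higher and 0 lower in Sku6 at 8 days. Moved age counts were 0 higher and 1 lower in Col-0 on the ground, and 2 lower in Sku6 on the ground. With an absolute log2 fold change of at least 1 the totals were 16 and 0, 2 and 0, and 2 and 5. Moved genotype counts were then 3 higher in Sku6 at 8 days in flight and 3 on the ground. Moved place counts were 0 higher in flight in Col-0 at 4 days and 0 lower in Sku6 at 4 days. In Sku6 at 8 days they were 0 higher and 0 lower. Moved age counts were 1 lower in Col-0 in flight, 0 lower in Col-0 on the ground and 2 lower in Sku6 on the ground. Within the limit, the counts higher in Sku6 at 4 days fell to 6 in flight and 4 on the ground. The count lower with age in Sku6 in flight fell to 2. At least 1 FPKM in both groups took out 2 genotype entries, both of ALD1 in flight, leaving 21. For the 58-gene list a q-value of at most 0.01 moved 8 of 24 counts, to 0, 1 or 2, a log2 limit of 1 moved 12, to 0 or 1, and leaving merged loci out moved 4, each to 1. Fewer entries pass a stricter limit by construction. With 1 FPKM added, 41 of 44 log2 fold changes stayed within 1.5 times and the 3 of ALD1 given above did not, while 0.1 FPKM added moved none. Levels, shares of called loci and the counts of genes with a promoter match did not move. Sequencing depth is not known, so the precision of the levels under 2 FPKM (ALD1 and WRKY59 in Col-0, and WRKY59 in Sku6 on the ground at 8 days) could not be judged.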
